A study of Mus musculus with 4 samples.

Results

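The mitochondrial carrier family Slc25 was followed in sorted hair cells and non-hair cells of the mouse cochlea, with and without gentamicin. Every gene whose symbol is Slc25a followed by a number was taken, which gave 47 of the 23420 genes in the files. Of these 47, 42 had at least 100 reads over the 12 replicates and were tested, beside 16077 genes tested in all. Cochleae came from postnatal day 1 Atoh1-GFP mice on a CD-1 background, in which an Atoh1 enhancer drives GFP in hair cells. All organs were cultured overnight in a medium with penicillin before treatment. The GFP positive cells are called hair cells and the GFP negative cells, which hold supporting cells and surrounding tissue, are called non-hair cells. Each population was sequenced from organs treated for 3 h with 0.5 mM gentamicin, an aminoglycoside antibiotic that is toxic to hair cells, and from untreated control organs, which gives 4 groups of 3 replicates. The number of animals behind a replicate is not given in the sources used here, and the p-values measure the spread between these replicates.

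Slc25 proteins sit, with few exceptions, in the inner mitochondrial membrane and move small solutes between the cytosol and the matrix. ADP/ATP carriers export the ATP that oxidative phosphorylation makes, the phosphate carrier brings in the phosphate it needs, and amino acid, carboxylate and cofactor carriers connect the matrix to cytosolic metabolism. A calcium-regulated branch carries a domain that binds calcium on the cytosolic side, so that its transport follows cytosolic calcium. In hair cells, mitochondria supply energy for ion transport and take up calcium, and they are among the organelles that aminoglycosides affect.

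Values are normalized read scores, that is, reads per gene scaled in each replicate, with 1 added to every value. Between 22400513 and 28152087 reads on genes were recovered per replicate. A fold change is on the scale of log2(score), and it understates changes of genes with scores near 1. A gene was called changed by gentamicin under the criteria of the study, an unadjusted p under 0.01 with the score more than 1.2-fold up or down. Differences between the populations were called at an adjusted p under 0.05. The fit was made with limma over all tested genes, and adjusted p-values are Benjamini-Hochberg values over these 16077 genes. Hair cell markers (6 genes) summed to scores of 10552 to 10984 in control hair cells and 195 to 233 in control non-hair cells. Supporting cell markers (6 genes) summed to as much in control hair cells (1085 to 1183) as in control non-hair cells (755 to 1088). Of the 6, S100a1 was called higher in hair cells (means 310 beside 82.3), Cdkn1b lower (136 beside 191), and 4 were not called. The GFP positive cells thus also carried these transcripts. Mesenchyme markers (5 genes) summed to 174 to 440 in control hair cells, where replicate 2 was the highest, and to 4728 to 6486 in control non-hair cells. Fewer cells of a type and less RNA per cell cannot be told apart in these sorted bulk samples.

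The ADP/ATP carriers were the most abundant members in both control populations when scores were divided by exon length. This order and the shares below depend on the merged exon length, 5550 bases for Slc25a3 and 1646 for Slc25a5. By score alone Slc25a3 lay above Slc25a5, with means of 296 beside 215 in control hair cells and 307 beside 189 in control non-hair cells. In control hair cells, the score per kilobase was 156 ± 2.25 (SD, n = 3) for Slc25a4 and 130.2 ± 6.63 for Slc25a5. Next came Slc25a11 with 62.4 ± 1.73, Slc25a3 with 53.2 ± 0.41, Slc25a23 with 45.1 ± 1.51 and Slc25a39 with 43.7 ± 2.0, the last 2 differing by less than the sum of their SDs. In control non-hair cells the order was Slc25a4 (162 ± 3.56), Slc25a5 (114 ± 11.8) and Slc25a3 (55.2 ± 1.85). Slc25a39 (36.6 ± 2.57), Slc25a11 (36.2 ± 2.30) and Slc25a1 (35.9 ± 6.29) followed and lay within their SDs of each other. Together Slc25a3, Slc25a4 and Slc25a5 held 46.3 to 47.0% of the summed score per kilobase of the family in control hair cells and 49.0 to 50.4% in control non-hair cells. Their share was 43.6 to 47.0% in treated hair cells and 51.2 to 51.8% in treated non-hair cells, where all 3 replicates lay above the controls. Of the 3, only Slc25a5 had a higher mean share in treated non-hair cells (20.97% beside 17.05%). Slc25a4 (22.76% beside 24.19%) and Slc25a3 (7.70% beside 8.24%) had lower ones.

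Under gentamicin the hair cells changed 9 of the 42 tested carriers, and no ADP/ATP or phosphate carrier was among them. Slc25a25, Slc25a38, Slc25a26 and Slc25a12 rose, while Slc25a42, Slc25a23, Slc25a51, Slc25a39 and Slc25a11 fell. The 9 genes are 21.4% of the members, beside 27.5% of all tested genes called in hair cells. By direction, 9.52% of members rose beside 12.7% of all genes, and 11.9% fell beside 14.8%. The median log2 difference was -0.03 over the 42 carriers and -0.09 over all genes tested. At an adjusted p under 0.05, 12 carriers passed, 7 higher and 5 lower, or 28.6% beside 33.2% of all genes (16.7% beside 14.8% for higher and 11.9% beside 18.4% for lower). Replicates of the 2 groups did not overlap for 24 carriers, or 57.1% beside 54.8%. By the study criteria and by adjusted p, the share of carriers called in either direction was thus below that of all genes. This order depended on the scaling. Scaling reads by the total of each replicate moved the median of all genes by 0.09 on the log2 scale. Then 13 of the 42 carriers were called, a larger share than the 27.2% of all genes. Of these 13, 9 rose (21.4% beside 17.3%) and 4 fell (9.52% beside 9.9%).

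**Figure D1:**
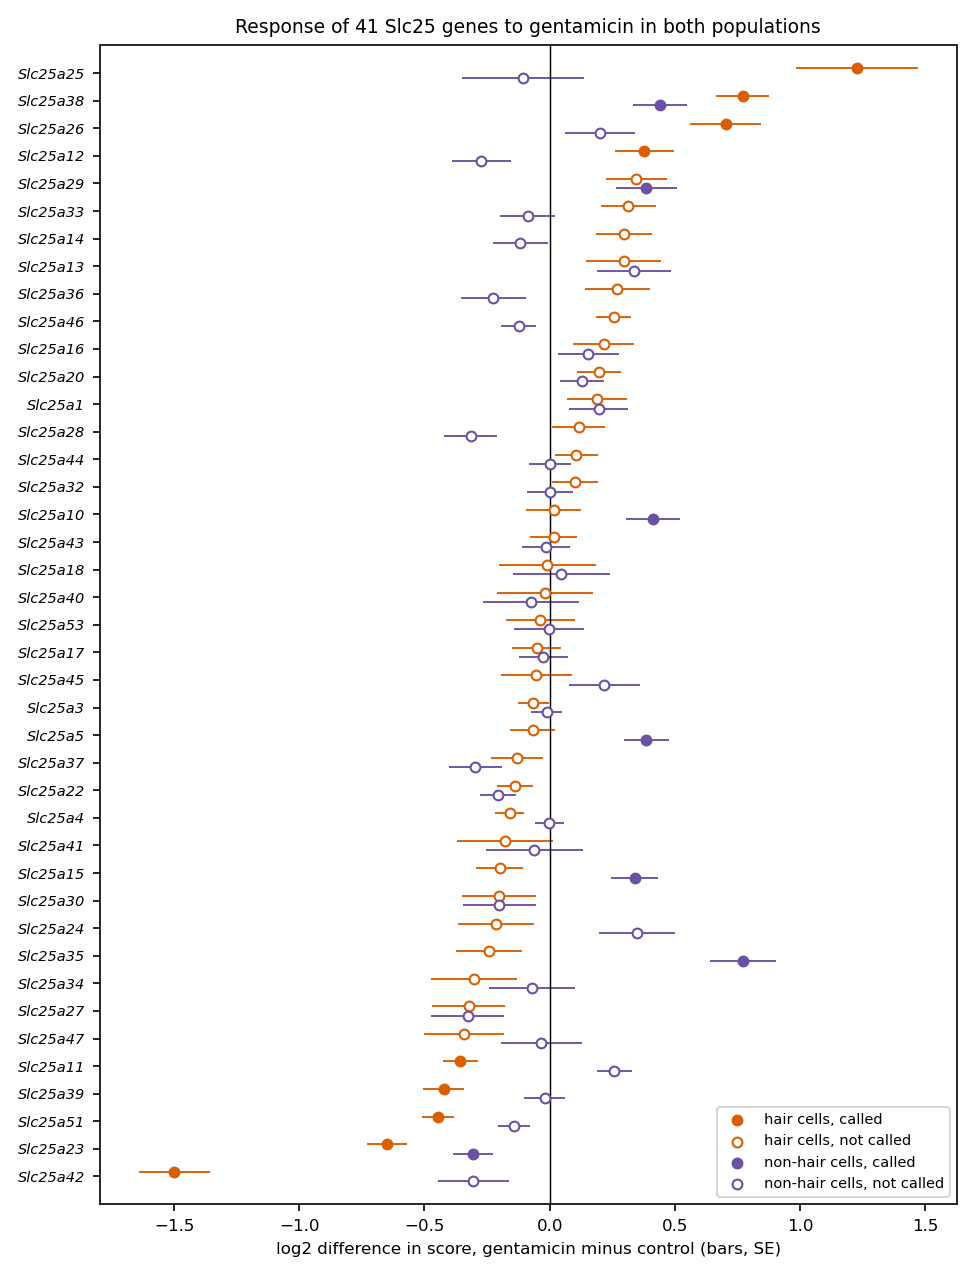
Log2 difference in score between gentamicin and control (x axis, bars are SE) for 41 of the 42 tested Slc25 genes (y axis, ordered by the response of hair cells), in hair cells (orange) and non-hair cells (purple). Filled points met the call rule: 9 carriers in hair cells, with Slc25a25 (1.23) and Slc25a42 (-1.499) at the ends, and 7 in non-hair cells, with Slc25a35 (0.77) the furthest from 0.

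None of the 3 tested ADP/ATP and phosphate carriers met the criteria in hair cells. Slc25a4, the ADP/ATP carrier of muscle and brain, had scores of 364, 373 and 364 in control hair cells and 333, 333 and 319 after gentamicin. All 3 treated replicates lay under all controls, and the log2 difference of -0.16 (95% interval -0.29 to -0.03) had an adjusted p of 0.0531 with limma. Slc25a5, the more widely expressed ADP/ATP carrier, had 226, 204 and 215 before and 217, 186 and 215 after, and the groups overlapped. Its difference was -0.07, with an interval of -0.26 to 0.13. A processed pseudogene, Slc25a5-ps, is annotated, and how reads that match both were assigned is not given in the sources used here. Slc25a3, the phosphate carrier, had 294, 297 and 298 before and 289, 273 and 288 after, again with all treated replicates under all controls. Its difference was -0.07, with an interval of -0.20 to 0.07. None of the 3 was thus called, and the intervals give the changes that these replicates allow. Slc25a31, the ADP/ATP carrier of the testis, had 76 reads over all 12 replicates and was not tested.

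The calcium-regulated carriers moved in opposite directions in hair cells. Of the 5 members, all tested, 2 rose, 1 fell and 2 were not called, and their median log2 difference was 0.30. Over all tested genes 12.7% rose and 14.8% fell, with a median of -0.09. Slc25a25, an ATP-Mg/phosphate carrier that changes the adenine nucleotide content of the matrix, had the largest rise of the family. Its scores were 58.4, 63.5 and 60.3 in control hair cells and 127, 171 and 132 after gentamicin. The lowest treated replicate lay above the highest control, and the score was 2.34-fold higher (log2 1.23 ± 0.24 SE, adjusted p = 0.00327 with limma). Slc25a23, a second ATP-Mg/phosphate carrier that also affects mitochondrial calcium uptake, had 239.6, 248 and 232 in controls and 158, 163 and 139 after treatment. The groups did not overlap and the gene fell by 0.65 on the log2 scale (SE 0.08, adjusted p = 0.000208). Slc25a24, the third carrier of this kind, had 6.65, 7.41 and 8.37 before and 6.77, 5.23 and 7.45 after, with overlapping groups and a difference of -0.22 (SE 0.15).

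The aspartate/glutamate carriers of the malate-aspartate shuttle, which bring reducing equivalents into mitochondria, are also calcium-regulated. Slc25a12, the form of brain and muscle (aralar), had 85.2, 87.2 and 82.8 in control hair cells and 114, 118 and 100.4 after gentamicin. The groups did not overlap, and the log2 difference was 0.38 ± 0.12 (SE, adjusted p = 0.0293). This call was lost in the fit blocked by replicate number, and it was kept in only 1 of the 6 fits that left out a replicate. It was lost without any 1 of the control replicates (log2 0.38, 0.40 and 0.36) and without treated replicate 1 (0.35) or 2 (0.33). Slc25a13, the liver form (citrin), had 5.17, 5.28 and 4.18 before and 5.58, 5.52 and 6.85 after. All treated replicates lay above the controls, but the difference of 0.30 ± 0.15 (SE) had an adjusted p of 0.149.

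The annotation gives Slc25a25 at chr2:32414487-32451445 on the minus strand (GRCm38), and RefSeq gives 3 start sites for it. The windows from 250 bases before to 50 bases after each start are shown because this gene had the largest rise of the family. Capitals mark a full cyclic AMP response element (CRE, TGACGTCA) and CCAAT boxes (CCAAT), both searched on both strands, so that a CCAAT box on the other strand reads ATTGG. The windows lie on the minus strand of GRCm38.p6 at chr2:32451421-32451720, chr2:32431102-32431401 and chr2:32424017-32424316.
Slc25a25 start 1: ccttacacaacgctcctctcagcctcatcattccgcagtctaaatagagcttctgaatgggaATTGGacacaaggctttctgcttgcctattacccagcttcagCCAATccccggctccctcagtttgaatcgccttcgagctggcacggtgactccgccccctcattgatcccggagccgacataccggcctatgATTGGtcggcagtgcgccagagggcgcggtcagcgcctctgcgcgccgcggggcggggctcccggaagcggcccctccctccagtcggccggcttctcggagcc
Slc25a25 start 2: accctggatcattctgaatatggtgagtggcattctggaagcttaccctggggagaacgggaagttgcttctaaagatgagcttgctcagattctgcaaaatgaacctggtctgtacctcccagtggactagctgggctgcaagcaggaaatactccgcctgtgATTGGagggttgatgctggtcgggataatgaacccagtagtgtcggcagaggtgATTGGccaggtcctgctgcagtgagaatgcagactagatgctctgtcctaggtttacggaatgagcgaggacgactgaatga
Slc25a25 start 3: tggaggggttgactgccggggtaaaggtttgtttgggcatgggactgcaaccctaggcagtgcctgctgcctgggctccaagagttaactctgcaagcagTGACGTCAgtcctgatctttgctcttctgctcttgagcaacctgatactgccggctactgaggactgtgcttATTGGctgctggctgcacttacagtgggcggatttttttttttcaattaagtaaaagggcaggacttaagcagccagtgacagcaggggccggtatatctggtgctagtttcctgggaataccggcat
The third window held a CRE whose first base lies at position -150 from the start, and the other windows held none. Across all RefSeq windows of 300 bases, 588 of 32851 (1.79%) held a full CRE. RefSeq windows were found for 36 of the 47 carriers. A CRE in any window was held by 2 of these 36 genes (5.56%), Slc25a25 and Slc25a36, a pyrimidine nucleotide carrier. Among all genes it was held by 549 of 27025 (2.03%). The files hold 1 value per gene, so which start was used in these cells is not known from them.

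**Figure D2:**
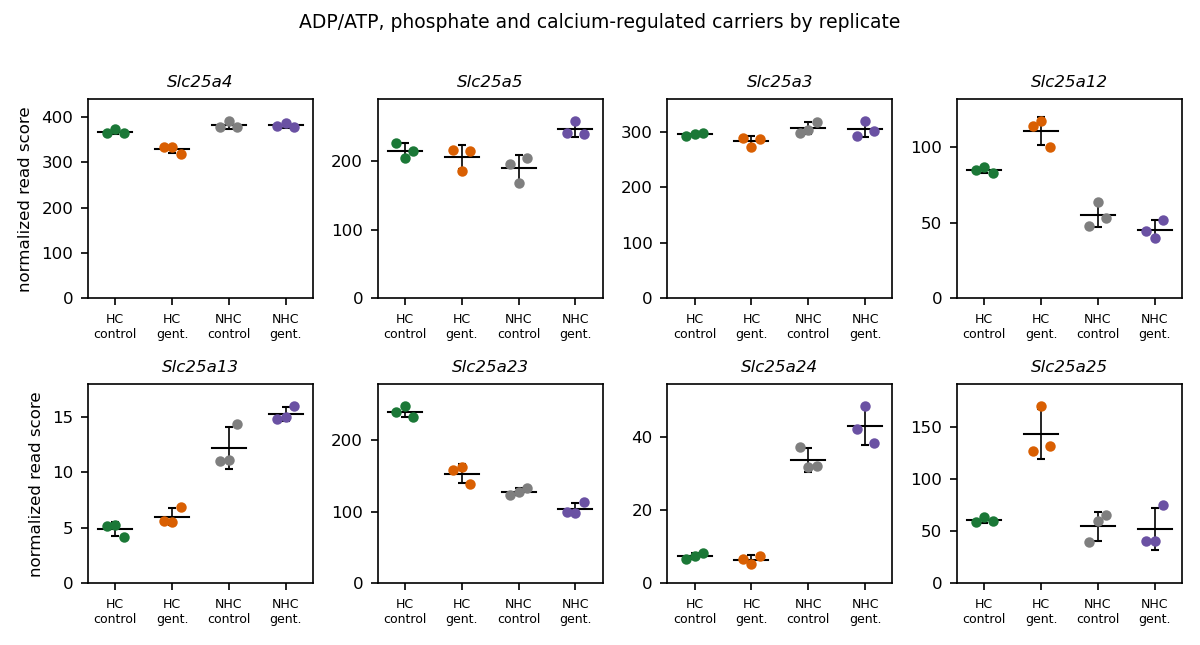
Normalized read scores (y axis, from 0) of the tested ADP/ATP (Slc25a4, Slc25a5), phosphate (Slc25a3) and calcium-regulated carriers in each replicate of the 4 groups (points), with the mean and SD over 3 replicates (lines and bars). HC stands for hair cells, NHC for non-hair cells and gent. for gentamicin. The treated hair cells sit between 127 and 171 for Slc25a25 and between 139 and 163 for Slc25a23, outside the range of their controls.

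The ratio of Slc25a23 to Slc25a25 was taken within each replicate. The ratios are of scores that keep the added 1 and are not divided by length, and they are compared only between groups. The log2 ratio of Slc25a23 to Slc25a25 was 2.04, 1.97 and 1.95 in control hair cells and 0.32, -0.07 and 0.07 after gentamicin. The mean went from 1.98 ± 0.05 (SD, n = 3) to 0.11 ± 0.19. In non-hair cells the ratio was 1.64, 1.11 and 1.02 before and 1.32, 1.25 and 0.59 after, and the groups overlapped. The ratio of Slc25a4 to Slc25a5 overlapped between the groups in hair cells (0.77 ± 0.09 before and 0.68 ± 0.14 after). In non-hair cells it was 0.95, 1.23 and 0.88 before and 0.66, 0.58 and 0.66 after, without overlap. For Slc25a12 to Slc25a13 the mean log2 ratio in hair cells was 4.13 ± 0.15 before and 4.21 ± 0.30 after, and in non-hair cells 2.18 ± 0.32 and 1.57 ± 0.15. With an offset of 0.1 these 4 means were 4.42, 4.44, 2.27 and 1.63, while those of Slc25a23 to Slc25a25 in hair cells were 1.998 and 0.11. Of 18 such comparisons (6 pairs of carriers, 3 contrasts), 10 had groups without overlap. Of these 10, 6 were between the control populations, 2 between gentamicin and control in hair cells and 2 in non-hair cells. With 3 replicates against 3, the exact two-sided permutation test cannot give a p below 0.1, and the adjusted value over the 18 was 0.18 for these 10.

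**Figure D3:**
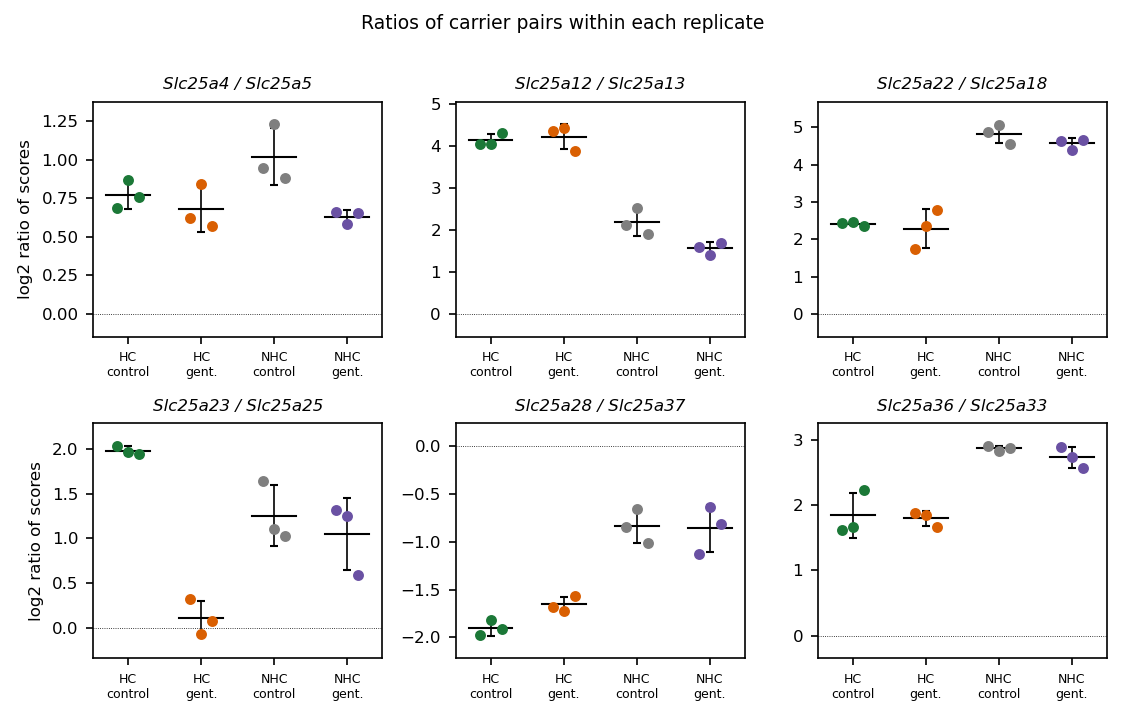
Log2 ratio of the scores of a pair of carriers within each replicate (points) in the 4 groups, with the mean and SD (lines and bars), for 6 pairs. The ratio of Slc25a23 to Slc25a25 lies between 1.95 and 2.04 in control hair cells and between -0.07 and 0.32 after gentamicin, while the ratio of Slc25a12 to Slc25a13 lies near 4 in both hair cell groups.

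Among the amino acid carriers, 2 of 8 tested members rose in hair cells and none fell, beside 12.7% and 14.8% of all tested genes. Their median log2 difference was 0.20 beside -0.09 over all genes, with Slc25a12 and Slc25a13 counted here too. Of the 2 rises, 1 was that of Slc25a12, whose call was kept in only 1 of the 6 fits that left out a replicate. Slc25a38, a glycine carrier needed for haem synthesis, had 20.5, 19.3 and 20.6 in control hair cells and 34.3, 33.4 and 35.3 after gentamicin. The groups were far apart, and the score was 1.71-fold higher (log2 0.77 ± 0.11 SE, adjusted p = 0.000439). Slc25a29, a carrier of basic amino acids, had 9.60, 11.1 and 11.3 before and 14.4, 12.3 and 13.9 after. It did not meet the criteria, although its log2 difference of 0.35 ± 0.12 (SE) had an adjusted p of 0.0488. The 4 others did not pass either test. The glutamate carrier Slc25a22 had means of 57.2 ± 2.03 (SD) before and 52.0 ± 3.94 after, and the second glutamate carrier Slc25a18 had 10.7 ± 0.45 and 10.9 ± 3.25. The ornithine carrier Slc25a15 had 14.5 ± 0.65 and 12.6 ± 0.40, and Slc25a44, a carrier of branched-chain amino acids, 49.96 ± 1.34 and 53.9 ± 5.12. Slc25a2, a second ornithine carrier, had 44 reads in all and was not tested.

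The deepest fall in hair cells was that of Slc25a42, which takes coenzyme A into the matrix. Its scores were 32.1, 33.6 and 35.9 in control hair cells and 10.1, 11.1 and 15.3 after gentamicin. All treated replicates lay at under 16, and the gene fell by 1.499 on the log2 scale (SE 0.14, adjusted p = 5.82e-05 with limma), to 0.354 of the control score. The gene lies at chr8:70184340-70212305 on the minus strand, and its start window (chr8:70212232-70212531) is shown for comparison with those of Slc25a25, with the same capitals.
Slc25a42 start: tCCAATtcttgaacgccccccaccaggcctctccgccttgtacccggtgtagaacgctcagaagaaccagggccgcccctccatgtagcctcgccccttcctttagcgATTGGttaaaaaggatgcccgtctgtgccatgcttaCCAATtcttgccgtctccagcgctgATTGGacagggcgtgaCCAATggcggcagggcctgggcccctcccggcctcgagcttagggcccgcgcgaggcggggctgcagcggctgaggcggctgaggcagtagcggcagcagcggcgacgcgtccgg
The window held no CRE and 5 CCAAT boxes, which begin at -249, -142, -106, -81 and -65 from the start. A CCAAT box was in 37.4% of all RefSeq windows. A cut of 5 boxes, the number found in this window, was met by 0.271% (89 of 32851). Of the carrier genes with a window, 19 of 36 held a CCAAT box, or 52.8% beside 41.1% of all genes.

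The other carriers that fell hold redox and cofactor roles. Slc25a51, the carrier that brings NAD into mitochondria, had 64.8, 67.4 and 72.8 in control hair cells and 50.3, 47.6 and 52.4 after gentamicin, a fall of 0.45 on the log2 scale (SE 0.06, adjusted p = 0.000487). Slc25a39, a glutathione carrier, had 127, 122 and 116 before and 96.2, 96.4 and 80.1 after, a fall of 0.42 (SE 0.08, adjusted p = 0.00284). The second glutathione carrier, Slc25a40, had means of 9.28 ± 2.26 (SD) and 9.14 ± 1.98. Slc25a11, the oxoglutarate carrier that works beside Slc25a12 in the malate-aspartate shuttle, had 137, 133 and 129.8 before and 109.9, 106 and 96.9 after. It fell by 0.36 (SE 0.07, adjusted p = 0.00291), a call that was lost with reads scaled by totals. In these 3 genes no treated replicate reached the lowest control. Slc25a26, which brings S-adenosylmethionine into mitochondria, went the other way at a low level, with 4.79, 3.98 and 4.94 before and 6.74, 7.74 and 7.78 after (log2 0.70 ± 0.14 SE, adjusted p = 0.00338).

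**Figure D4:**
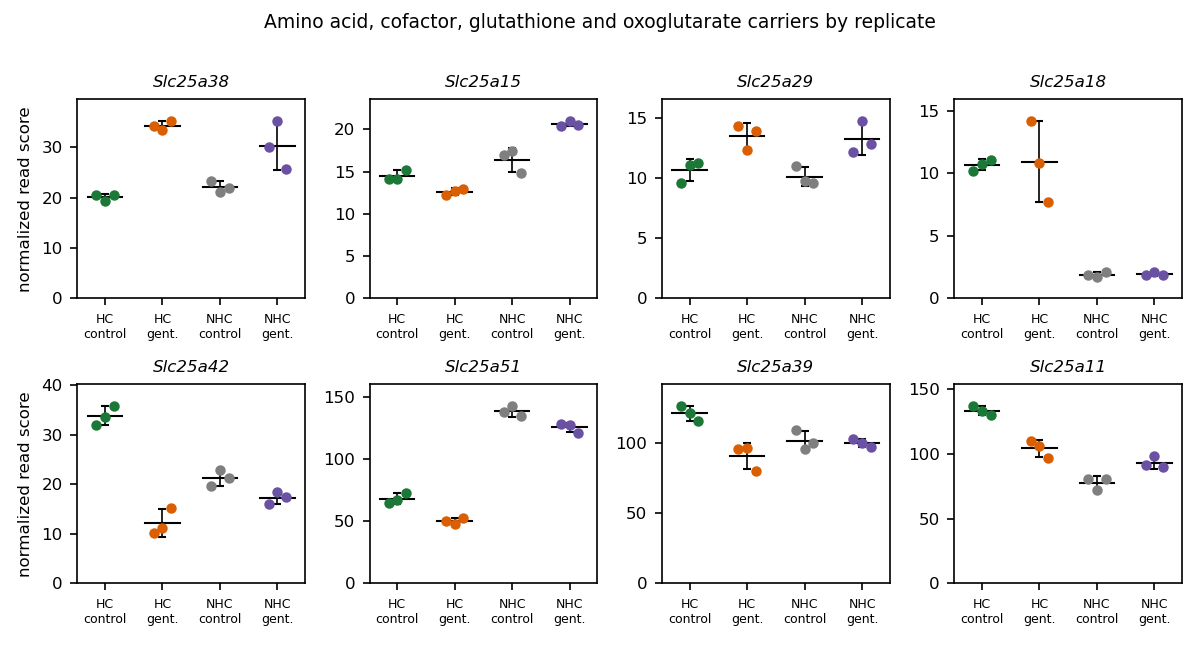
Normalized read scores (y axis, from 0) of 4 amino acid carriers (top) and of the coenzyme A, NAD, glutathione and oxoglutarate carriers Slc25a42, Slc25a51, Slc25a39 and Slc25a11 (bottom) in each replicate, with the mean and SD over 3 replicates. HC stands for hair cells, NHC for non-hair cells and gent. for gentamicin. Slc25a42 falls from 32.1 to 35.9 in control hair cells to 10.1 to 15.3 in treated ones.

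A few carriers lay near the criteria in hair cells. Slc25a46, a member of the outer membrane that takes part in mitochondrial shape, had 72.7, 70.2 and 77.1 before and 84.9, 94.95 and 83.0 after, an adjusted p of 0.0163 but a fold change of 1.19. Slc25a33, a pyrimidine nucleotide carrier, had 38.9, 37.2 and 32.5 before and 43.96, 48.7 and 42.2 after (log2 0.31 ± 0.11 SE, adjusted p = 0.0474). Both had treated replicates above all controls. Among the carriers called in hair cells, protein-coding genes on the other strand shared exon sequence with Slc25a11 (Rnf167, log2 difference -0.08), Slc25a25 (Naif1, 0.15) and Slc25a26 (Lrig1, -0.16), and none of these neighbours was called. Slc25a10, Slc25a30, Slc25a32, Slc25a35 and Slc25a45, taken up below, had log2 differences of 0.02, -0.20, 0.10, -0.24 and -0.05, and none was called. A further 15 tested carriers, Slc25a40 among them, had no ADP/ATP, phosphate, calcium-regulated or amino acid role. They had no call under gentamicin or in the interaction and no place among the 5 largest population differences. Their log2 differences in hair cells were -0.34 to 0.30, and none had an adjusted p under 0.05.

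Markers of other cell types moved with the treatment in the sorted hair cells. After gentamicin, supporting cell markers summed to 674 to 992 (controls 1085 to 1183), mesenchyme markers to 89.0 to 142 (controls 174 to 440), endothelial markers to 6.23 to 10.9 (controls 11.8 to 20.1) and Schwann cell markers to 76.9 to 139 (controls 165 to 207). Hair cell markers summed to 8843 to 9906. The macrophage marker sum was higher, 11.3 to 17.5 beside 1.57 to 2.65, through Cd68 (means 14.1 beside 2.43), the 1 of the 4 that was called. The others stayed near the lowest score, with treated means of 1.10 to 1.46 beside control means of 1.07 to 1.29. Of the 5 carriers that fell, Slc25a51 was lower in control hair cells than in control non-hair cells, and the other 4 were higher there. The part of these cell types in the falls was not tested. Without control replicate 2, which had the highest mesenchyme sum, 8 of the 9 calls were kept and that of Slc25a12 was lost. Erythroid markers, 7 of 9 in the files, summed to 14.8 in treated hair cell replicate 2 and to at most 2.53 in the other hair cell replicates. Slc25a38 was 33.4 in that replicate and 34.3 and 35.3 in the other two.

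In non-hair cells, gentamicin was followed by 6 rises and 2 falls. Slc25a35, Slc25a38, Slc25a10, Slc25a29, Slc25a5 and Slc25a15 rose, and Slc25a23 was 1 of the 2 that fell. The 8 genes called are 19.0% of the 42 members, beside 5.44% of all tested genes. For rises the share was 14.3% beside 3.18%, and for falls 4.76% beside 2.26%. The median log2 difference was -0.02 over the carriers and -0.01 over all genes. At an adjusted p under 0.05 only Slc25a35 passed (2.38% beside 0.342%). Replicates of the 2 groups did not overlap for 17 carriers, or 40.5% beside 17.8% of all genes. The count was lower in some of the fits that left out a replicate or used fewer groups. It was 3 without treated non-hair cell replicate 2, 5 without control non-hair cell replicate 2, and 3 in a fit of the non-hair cells alone.

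Slc25a35, a little characterised carrier, had 4.14, 4.17 and 4.90 in control non-hair cells and 6.76, 8.37 and 7.47 after gentamicin. The groups did not overlap, and the log2 difference was 0.77 ± 0.13 (SE, adjusted p = 0.0391 with limma). Of its exon length, 31.3% overlaps Rangrf on the other strand, and reads of the 2 genes cannot be told apart there unless strand was used in counting, which is not given in the sources used here. Rangrf rose by 0.36 in the same contrast and met the criteria too. Slc25a38 had 23.3, 21.2 and 21.97 before and 30.1, 35.3 and 25.6 after (log2 0.44 ± 0.11 SE, adjusted p = 0.0936). It was called in both populations, with all treated replicates above all controls in each.

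Slc25a5 had 196, 167 and 205 in control non-hair cells and 241, 259 and 239 after gentamicin. The groups did not overlap (log2 0.39 ± 0.09 SE, adjusted p = 0.083). Slc25a4 and Slc25a3 had differences of -0.002 and -0.01, with intervals of -0.13 to 0.12 and -0.15 to 0.12. Slc25a5, Slc25a35 and Slc25a38 kept their calls in all 6 fits that left out a replicate.

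Of the other calls in non-hair cells, 4 are given here, and each depended on the replicates used. Slc25a10, the dicarboxylate carrier, had 43.0, 43.1 and 50.5 before and 52.0, 64.3 and 65.8 after (log2 0.41 ± 0.11 SE, adjusted p = 0.1099). Its call was lost without control replicate 1 or 2 or treated replicate 2 or 3, where differences over the 6 fits ranged from 0.35 to 0.52. Slc25a15 had 16.9, 17.4 and 14.8 before and 20.4, 21.0 and 20.6 after (log2 0.34 ± 0.09 SE, adjusted p = 0.119). Its call was lost without control replicate 3 or any treated replicate (range 0.27 to 0.39). Both rises had groups that did not overlap. Slc25a29 had 11.0, 9.79 and 9.61 before and 12.2, 14.8 and 12.9 after (log2 0.39 ± 0.12 SE, adjusted p = 0.158). Its call was lost with a minimum of 1 read, in the fit blocked by replicate number, and without control replicate 2 or 3 or treated replicate 2 or 3 (range 0.31 to 0.45). Slc25a23 had 123, 128 and 134 before and 100.1, 97.5 and 114 after (log2 -0.31 ± 0.08 SE, adjusted p = 0.106), and the call was lost without control replicate 3 or treated replicate 1 or 2 (range -0.37 to -0.26). This fall had the same direction as in hair cells. Erythroid markers summed to 64.0 in control non-hair cell replicate 1 and to at most 7.79 in the other non-hair cell replicates. Slc25a37, the iron carrier of erythroid cells, had 55.4 in that replicate and 54.4 and 56.0 in the other control replicates.

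Slc25a25 was not called in non-hair cells. It had 39.4, 59.5 and 65.9 before and 40.2, 40.9 and 75.7 after, with groups that overlapped widely and a log2 difference of -0.10 (interval -0.64 to 0.43). Slc25a42 had 19.7, 22.95 and 21.4 before and 16.1, 18.4 and 17.4 after, a difference of -0.31 (interval -0.62 to 0.01). Slc25a12 had 47.7, 63.6 and 53.4 before and 44.6, 39.7 and 51.9 after, a difference of -0.27 (interval -0.53 to -0.02, adjusted p = 0.267). Slc25a13 and Slc25a24 had differences of 0.34 and 0.35, with adjusted p-values of 0.278 and 0.275. Slc25a22, Slc25a18 and Slc25a44 had differences of -0.21, 0.05 and 0.001, and none was called.

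Whether the response differed between the populations was tested with an interaction contrast, the log2 difference in hair cells minus that in non-hair cells. It was under an adjusted p of 0.05 for 10 of the 42 carriers, or 23.8% beside 13.4% of all tested genes. For positive values the share was 7.14% beside 6.85%, and for negative ones 16.7% beside 6.57%. The response was more positive in hair cells for Slc25a25, Slc25a12 and Slc25a46, and more negative for Slc25a42, Slc25a35, Slc25a11, Slc25a15, Slc25a5, Slc25a39 and Slc25a51. With reads scaled by totals 9 were called (beside 13.8%), 5 positive (beside 9.33%) and 4 negative (beside 4.46%). With hair cells and non-hair cells of the same treatment and replicate number as a block, 5 were called, namely Slc25a25, Slc25a42, Slc25a35, Slc25a11 and Slc25a39. The largest values were 1.33 ± 0.34 (SE) for Slc25a25, with an adjusted p of 0.0286, -1.19 ± 0.20 for Slc25a42 (0.00517) and -1.02 ± 0.19 for Slc25a35 (0.00721). Slc25a11, which fell in hair cells and had 80.9, 72.1 and 80.3 before and 91.1, 98.0 and 89.6 after in non-hair cells, followed with -0.61 ± 0.10 (0.00444). Slc25a42, Slc25a35 and Slc25a11 kept this call in all 12 fits that left out a replicate, and Slc25a25 kept it in 4. For Slc25a38 the difference between the responses was 0.33, with an interval of -0.004 to 0.66 (adjusted p = 0.169). For Slc25a23 it was -0.34, with an interval of -0.59 to -0.10 (adjusted p = 0.0666). For Slc25a4 and Slc25a3 it was -0.16 and -0.05, and neither was called.

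The control populations differed in most carriers, and the ADP/ATP and phosphate carriers were not among those called. Of the 42 tested members, 16 were higher and 13 lower in hair cells than in non-hair cells, or 69.0% beside 74.1% of all tested genes. The 16 higher members were 38.1% beside 31.9% of all genes, and the 13 lower ones stand beside 42.2%. Replicates did not overlap for 33 carriers (78.6% beside 79.2%). The median log2 difference was 0.11 over the carriers and -0.12 over all genes, and scaling by the median of ratios moved that of all genes by 0.12. Slc25a4 differed by -0.06 (interval -0.19 to 0.07), Slc25a3 by -0.05 (-0.19 to 0.08) and Slc25a5 by 0.19 (-0.01 to 0.39). For Slc25a4 and Slc25a3 all hair cell replicates lay under all non-hair cell replicates, though neither was called. Among the calcium-regulated carriers, Slc25a23 was higher in hair cells by 0.90 ± 0.08 (SE) and Slc25a12 by 0.64 ± 0.12. Slc25a24 and Slc25a13 were lower. Slc25a24 had 6.65, 7.41 and 8.37 in hair cells and 37.3, 31.7 and 32.0 in non-hair cells (log2 -2.17 ± 0.15 SE, adjusted p = 1.42e-07 with limma). Slc25a13 had 5.17, 5.28 and 4.18 beside 11.0, 11.1 and 14.3 (-1.31 ± 0.15). Their groups lay far apart, whereas Slc25a25 was not called (0.18, interval -0.36 to 0.71).

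Of the amino acid carriers, Slc25a18 stood out, with 10.2, 10.8 and 11.1 in control hair cells and 1.87, 1.67 and 2.12 in control non-hair cells. Its log2 difference of 2.51 ± 0.19 (SE, adjusted p = 3.05e-07) was the largest of the family, and was 3.335 with an offset of 0.1 in place of 1. The other glutamate carrier, Slc25a22, had 55.2, 59.3 and 57.1 beside 54.2, 55.5 and 49.5 and was not called. Slc25a15, Slc25a29, Slc25a38 and Slc25a44 were not called either, with differences of -0.17 to 0.09.

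Of the other carriers, the 5 with the largest difference were chosen by size. Slc25a32, a carrier of folate and flavin cofactors, had 57.8, 54.8 and 64.3 in hair cells and 12.8, 13.2 and 12.7 in non-hair cells (2.19 ± 0.09 SE, adjusted p = 2.06e-09). Slc25a35 was higher by 1.92 ± 0.13 and Rangrf on the other strand by 0.08, and the part of shared reads in this difference was not tested. Slc25a33 was higher by 1.13 ± 0.11, and 14.9% of its exon length overlaps the antisense gene Gm13068. On the other side, Slc25a45 had 1.17, 1.34 and 1.18 beside 2.86, 2.82 and 3.86 (-1.35 ± 0.14, or -2.78 with an offset of 0.1), which is near the lowest score possible in hair cells. Slc25a30, an uncoupling-like carrier, had 5.04, 6.30 and 5.29 beside 9.76, 11.9 and 12.5 (-1.04 ± 0.15). Mesenchyme, endothelial and Schwann cell markers were all higher in non-hair cells, and their part in the lower values of Slc25a24, Slc25a13, Slc25a45 and Slc25a30 in hair cells was not tested.

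**Figure D5:**
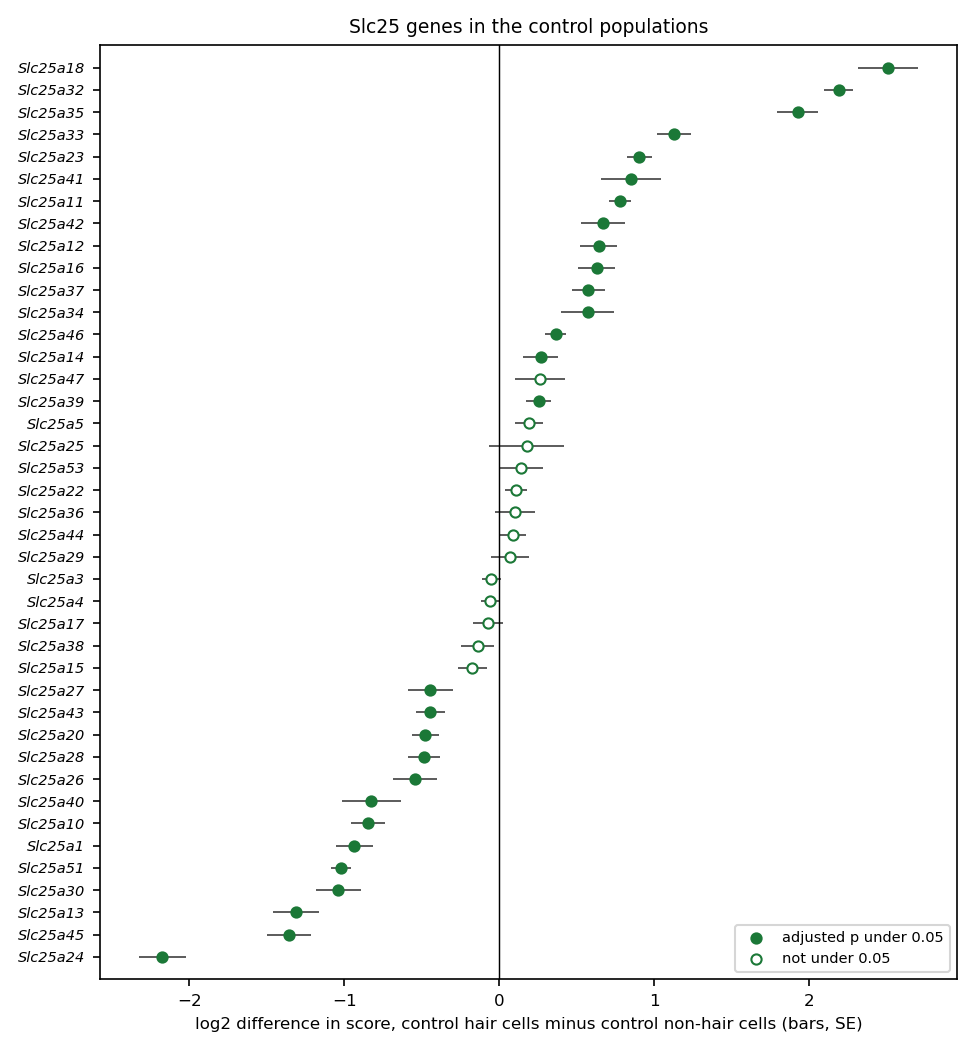
Log2 difference in score between hair cells and non-hair cells of the control groups (x axis, bars are SE) for 41 of the 42 tested Slc25 genes (y axis, ordered by the difference). Filled points had an adjusted p under 0.05. Slc25a18, Slc25a32 and Slc25a35 lie at 1.92 or above and Slc25a24 at -2.17, while the ADP/ATP and phosphate carriers lie between -0.06 and 0.19.

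The 5 carriers under 100 reads were at or near the lowest score in all groups. Slc25a31 had 76 reads, Slc25a2 44, Slc25a21 (an oxodicarboxylate carrier) 81, Slc25a48 16 and Slc25a54 6, over all 12 replicates. Differences in these genes were not tested. Scores of Slc25a2 were 1.04 to 1.09 in control hair cells and 1.18 to 1.21 after gentamicin, without overlap, and 1.15 to 1.24 and 1.07 to 1.18 in non-hair cells.

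Other genes of mitochondrial transport were counted from a list of 48, of which 33 were in the files and 32 were tested. In hair cells 3 rose and 6 fell, a share close to the 27.5% of all genes, and their median log2 difference was 0.05. Vdac1, the main channel of the outer membrane, fell by 0.46 (SE 0.12, adjusted p = 0.0127), Ppif, the cyclophilin of the permeability transition, by 0.45 (0.10, 0.00606), and Mdh1, the cytosolic enzyme of the malate-aspartate shuttle, by 0.35 (0.09, 0.0142). Ucp2, an uncoupling protein of the same carrier fold, had 332, 304 and 314 before and 174, 173 and 191 after, a fall of 0.82 (SE 0.16, adjusted p = 0.00294). Mtch1, a carrier-like protein of the outer membrane, fell by 0.39 and Timm8b, a chaperone of carrier import, by 0.43. Efha2 (now Micu3), a regulator of the calcium uniporter, had 37.7, 35.2 and 45.7 before and 64.0, 64.6 and 55.8 after (log2 0.64 ± 0.19 SE, adjusted p = 0.0217). Agk, part of the carrier import complex of the inner membrane, rose by 0.28 ± 0.08, and Ucp1, with 117 reads in all, had a log2 difference of 1.00 ± 0.15. In non-hair cells 2 of the 32 were called, Letm1 and Tomm40, both higher.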

How the data were processed

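The files hold a normalized read score for 23420 genes in each of 12 replicates, as the authors deposited it. Per the labels and the study's methods, single-end reads from poly(A) libraries were trimmed and aligned to mm10 with TopHat2. The methods call the score RPKM, but the deposited score is not divided by gene length. Subtracting the offset of 1 and dividing by the smallest step of a replicate gave reads, of which 77.0 to 78.9% of values under 50 were whole within 0.05. No count test was therefore run. Genes with at least 100 such reads were fitted as log2 scores with limma 3.58.1 (R 4.3.3), 4 groups in 1 model, with a trend. Ratios of carriers were tested with exact permutation tests (scipy 1.17.1). Levels per kilobase used the merged exon length of GENCODE M21, and start windows came from RefSeq (GRCm38.p6). The fit was tested on simulated data. A carrier that is counted is not reported here. Of the others, those with ADP/ATP, phosphate, calcium-regulated and amino acid roles, those called under gentamicin or in the interaction, and the 5 with the largest population difference among the rest are given with values. Genes of other lists are named where they were called in hair cells. Letm1, Tomm40, Cd68, S100a1, Cdkn1b, Rangrf, Rnf167, Naif1, Lrig1, Slc25a1, Slc25a36, Slc25a37 and Slc25a40 were named after their values were seen. Members and lists were chosen with earlier results of these data known. Strand use in counting is not given in the sources used here, and 14 carriers share exon sequence with another gene. Deviations of same-numbered control hair cells and non-hair cells correlated at 0.216, 0.316 and 0.2, beside -0.27 to -0.0548 for different numbers. The block within a treatment therefore paired them by number, a pairing seen in the data and not given by the labels. Same-numbered treated populations, which this block also paired, correlated at 0.377, -0.0386 and -0.0179. Alternatives were scaling by total reads or by the median of ratios, an offset of 0.1, a minimum of 1 or 1000 reads, the replicate number as a block over all groups or, added after seeing the data, within a treatment, the compared groups alone, the other call rule, and each replicate left out in turn.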

Additional observations from a re-analysis of the deposited data

Results flagged for a closer look

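The response to gentamicin differed between hair cells and non-hair cells, by the interaction test at an adjusted p under 0.05 with limma, for 10 carriers. The differences between the log2 responses were 1.33 for Slc25a25, 0.65 for Slc25a12 and 0.38 for Slc25a46, which were more positive in hair cells. They were -1.19 for Slc25a42, -1.02 for Slc25a35, -0.61 for Slc25a11, -0.54 for Slc25a15, -0.45 for Slc25a5, -0.40 for Slc25a39 and -0.31 for Slc25a51, which were more negative. Slc25a42, Slc25a35 and Slc25a11 kept this call in all 12 fits that left out a replicate. Slc25a15 kept it in 10 of 12 and lost it without control hair cell replicate 2 or 3. The other 6 lost it without any 1 of control hair cell replicates 1 and 2, treated hair cell replicate 2, control non-hair cell replicate 2 and treated non-hair cell replicates 1 and 2, which left 3 or 4 carriers called in each of these fits. Over the 12 fits the difference ranged from 1.18 to 1.63 for Slc25a25, from 0.54 to 0.75 for Slc25a12, and from 0.32 to 0.42 for Slc25a46. It ranged from -0.51 to -0.37 for Slc25a5, from -0.46 to -0.31 for Slc25a39 and from -0.34 to -0.26 for Slc25a51. Groups of 3 replicates are too small for the test of single high or low replicates.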

How the results depend on the processing

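Alternatives kept the direction of each called carrier. In hair cells, 8 to 13 carriers were called under the other settings and 8 to 10 when a replicate was left out, and 8 or 9 of the 9 carriers were kept in each. In non-hair cells the count of 8 was 3 with the 2 groups fitted alone, 1 at an adjusted p under 0.05, and 3 to 8 when a replicate was left out. The interaction called 9 to 11 under the other settings except a block within treatment (5) and 3 to 10 when a replicate was left out. The population difference called 25 to 30 and 26 to 30. Of the ratios, 10 to 12 had no overlap when a replicate was left out. Scaling by total reads ended the hair cell call of Slc25a11 and the interaction calls of Slc25a5, Slc25a39 and Slc25a51. Scaling by the median of ratios ended that of Slc25a51 too, and a minimum of 1 read ended the non-hair cell call of Slc25a29. Deviations of same-numbered treated and control hair cells correlated at 0.0369, 0.0523 and 0.0369. Those of non-hair cells correlated at 0.208, -0.232 and 0.683, beside -0.749 to 0.572 for different numbers. A pairing of treated with control samples by number was thus not seen, though 3 values each cannot exclude it. With the replicate number as a block over all groups, 8 carriers were called in hair cells, 8 in non-hair cells, 9 for the interaction and 28 between the populations. This block ended the calls of Slc25a12 in hair cells, of Slc25a29 in non-hair cells and of Slc25a51 in the interaction. With hair and non-hair cells of the same treatment and number as a block, chosen after seeing the data, the interaction called 5, which ended the calls of Slc25a5, Slc25a12, Slc25a15, Slc25a46 and Slc25a51, and the populations differed in 28. The causes of these shifts were not tested. Carriers with scores near 1, such as Slc25a45, are limited by depth.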
